A study of Mus musculus with 1183 samples.

Results

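The genes described here are 10 genes whose products fill the granules and the cytosol of mouse neutrophils: Elane, Mpo, Ngp, Camp, Ltf, Lcn2, Retnlg, S100a8, S100a9 and Chil3. They were taken by symbol from the 18072 gene rows of the count table, and all 10 rows were found. They were followed across 15 labelled immune cell subtypes and cell by cell within the subtype labelled neutrophil. The cells were sorted by flow cytometry from distal lungs taken on postnatal day 7 (P7), and their treatment label is hyperoxia, the breathing of oxygen-enriched air that injures the newborn lung. Every cell carries 1 of 2 animal labels, 1 female and 1 male. Each label was taken as 1 animal and 1 replicate, although the sources used here do not say whether it stands for a single mouse or a pool, and sex and animal cannot be told apart. Strain and oxygen level are not given in the sources used here, and room-air cells were not analysed here, so no value below is an effect of hyperoxia.

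Neutrophils make their granule proteins in waves as they mature in the bone marrow. Promyelocytes transcribe azurophil granule genes such as Elane and Mpo, myelocytes and metamyelocytes transcribe specific granule genes such as Ngp, Camp, Ltf and Lcn2, and later band and segmented cells turn to gelatinase granule and surface genes, while the proteins already made stay in the granules. RNA for a granule gene therefore marks the stage at which a cell is or recently was, whereas the cytosolic pair S100a8 and S100a9, which together form calprotectin, is transcribed through most of the later stages and in monocytes.

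The neutrophil label covered 56 female and 78 male cells of the 1183 cells in all, and all but 3 of them came from plates sorted on the leukocyte marker CD45. Depth was 16753 to 2651005 reads per neutrophil, with a median of 616659 in the female and 571915 in the male. For shares of cells, each cell was thinned to 100000 reads and a gene was counted as detected at 5 reads or more, that is 50 CPM (counts per 1000000 reads). This kept 55 female and 78 male neutrophils. At least 2 of 5 neutrophil markers that are not among the 10 genes (Csf3r, Cxcr2, Ly6g, Mmp9 and Trem1) were detected in 52 of the 55 female and 74 of the 78 male cells. The other 8 neutrophil-labelled cells, counting the cell too shallow to thin, carried no detected Ltf, Lcn2, Retnlg or Chil3, and 2 of them had no read of S100a8 or S100a9. At least 2 of 4 monocyte markers were detected in 4 female and 8 male neutrophils, and at least 2 of 4 endothelial markers in 0 and 5. At least 2 progenitor markers were detected in 0 female and 3 male cells, 2 red cell markers in 1 and 1, 2 alveolar macrophage or B cell markers in 0 and 1 each and 2 T cell markers in 1 and 0. The male red cell signal was uneven, with 5585 CPM over all neutrophils and 221418 CPM in a single cell. No neutrophil had 2 basophil, mast cell or NK cell markers. The parts these cells play in the results below were not tested, except where counts without the doubted cells are given.

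The azurophil genes were at or near 0. Elane, which encodes neutrophil elastase, had 2 reads in the whole table and none in a neutrophil. Mpo, which encodes myeloperoxidase, the enzyme that makes hypochlorous acid, had no read in the 56 female neutrophils and 7 reads in the 78 male ones, a level of 0.13 CPM. Neither gene was detected in any thinned neutrophil, which by a limit of 3 counts allows a share of up to 5.45% of female and 3.85% of male cells, and the exact 95% intervals end at 6.49% and 4.62%. These limits, like all intervals here, cover counting error only. Of the 5 further genes of that list in the table, the serine protease genes Prtn3 and Ctsg had no read in a neutrophil and Prss57 was detected in 1 female cell. The remaining 2 were detected in some neutrophils. Serpinb1a, an inhibitor of elastase-type proteases, was detected in 6 female and 13 male neutrophils, and Fcnb, which encodes the lectin ficolin B, in 5 female and 4 male ones.

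Mpo had its highest level outside the neutrophils. In the subtype labelled mast cell II it reached 120.3 CPM over 14 female cells and 34.5 CPM over 8 male cells, and it was detected in 2 of the female cells and 1 of the male cells. The highest of the 3 held 1231 CPM of Mpo. The mast cell II label itself goes against its markers, since at least 2 of 4 mast cell markers were detected in only 2 of these female and 2 of these male cells, against 39 of 39 and 20 of 20 cells labelled mast cell. In the female basophils a single cell held 99.3% of the Mpo reads, at 821 CPM, together with 204.3 CPM of Lcn2 and 24479 CPM of the basophil protease gene Mcpt8. The mean level over the animals was 77.4 ± 60.7 CPM (SD, n = 2) in mast cell II and 7.48 ± 10.5 CPM (SD, n = 2) in basophils. Mast cell II lay above the basophils in both animals, and below them the next subtypes held 7 reads or fewer.

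The specific granule genes were restricted to a minority of neutrophils, in which they took a large part of the reads. Ngp encodes neutrophilic granule protein, Camp the antimicrobial cathelicidin, Ltf the iron-binding lactoferrin and Lcn2 lipocalin-2, which binds bacterial siderophores. Ngp was detected in 9 of 55 female neutrophils (16.4%, exact 95% interval 7.77% to 28.8%) and in 20 of 78 male ones (25.6%, 16.4% to 36.8%). Camp was detected in 8 female and 16 male cells, Ltf in 7 and 15, and Lcn2 in 16 and 31. Apart from Lcn2 these counts differ by at most 5 cells within an animal, and the intervals of the 2 animals overlap for each gene. The bar chart of shares shows this order.

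**Figure D1:**
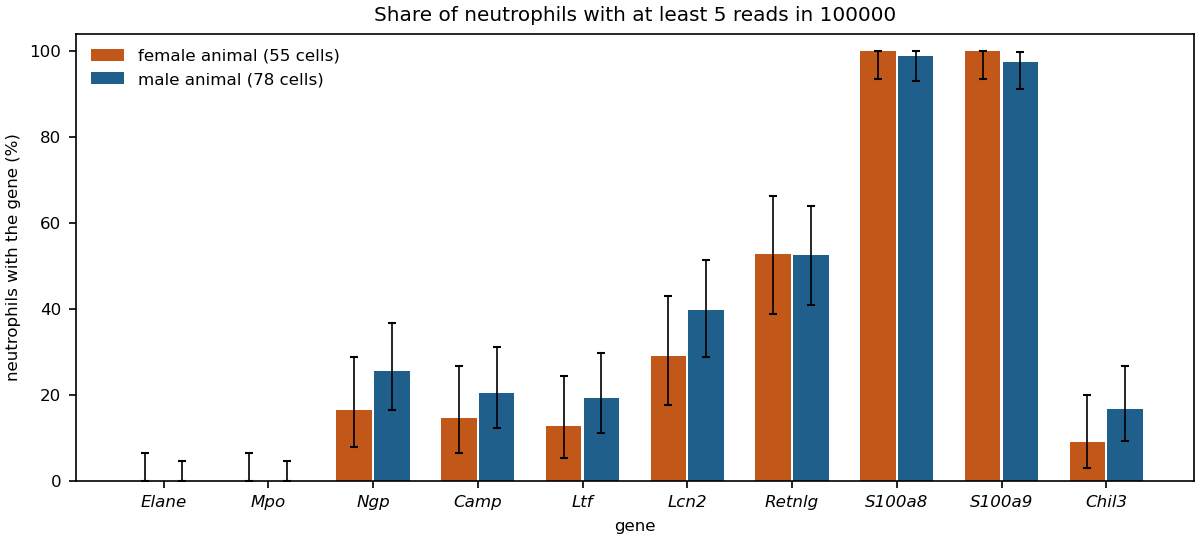
Percent of neutrophils with at least 5 reads of each gene after thinning to 100000 reads (y axis) for the 10 genes (x axis), by animal, with exact Clopper-Pearson 95% intervals that cover counting error only. Elane and Mpo are at 0, Ngp, Camp, Ltf and Chil3 lie between 9.09% and 25.6%, Lcn2 and Retnlg lie between 29.1% and 52.7%, and S100a8 and S100a9 lie at 97.4% or above.

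A small set of cells held nearly all of the RNA. In the female, 6 of 56 neutrophils held 90% of the reads of each of Ngp, Camp, Ltf and Lcn2, and in the male 9 of 78 did so for Ngp, Camp and Ltf and 11 for Lcn2. Ngp was at least 10000 CPM in 7 female cells, where it ran from 25086 CPM through a median of 72522 CPM to 121316 CPM, and in 13 male cells, where it ran from 21016 CPM through 70393 CPM to 115853 CPM. All 20 of these cells also had Camp, Ltf and Lcn2, with lowest values of 5328 CPM for Camp, 6990 CPM for Ltf and 7647 CPM for Lcn2. The 4 genes together took a median of 13.4% of all reads in the 7 female cells and 12.3% in the 13 male cells, and up to 21.2% in a single cell. The range from 10000 CPM of Ngp upwards is a cut through a continuous measure and serves only as a description. Just below it were 2 female cells, at 175.7 CPM and 893 CPM, and 7 male cells from 313.5 CPM to 6630 CPM, and the 46 female and 58 male cells under 50 CPM had at most 2.49 CPM and 3.38 CPM.

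Because so few cells carry these genes, the level of the summed neutrophils depends on how cells are weighted. With all reads summed, the Ngp level was 16815 CPM for female and 18570 CPM for male cells. With each cell weighted equally it was 9340 CPM and 11764 CPM. The cells high in Ngp were also deeper. Their median depth was 1457082 reads in the female and 849541 reads in the male, against 565124 and 545040 in the cells under 50 CPM of Ngp. At equal depth they also showed more genes, with medians of 1918 and 1860 (female and male) against 1272 and 1298. The part of depth in the pattern was not tested.

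Within single cells the granule genes were nested, as the cell by cell map shows. Of the 15 male cells with Ltf, 15 had Ngp and 14 had Camp, and of the 7 female cells with Ltf all 7 had both. Chil3, which encodes the chitinase-like lectin Ym1 and is known in mice from both immature neutrophils and alveolar macrophages, was detected in 5 of the 7 female and all 13 male cells of the highest Ngp range, and in no neutrophil below it. Lcn2 reached further: 9 of 46 female and 12 of 58 male cells under 50 CPM of Ngp had it, at up to 3823 CPM and 2254 CPM, values below the lowest Lcn2 value in the high range. The largest single combination was S100a8 with S100a9 and none of the other genes, in 23 female and 30 male cells.

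**Figure D2:**
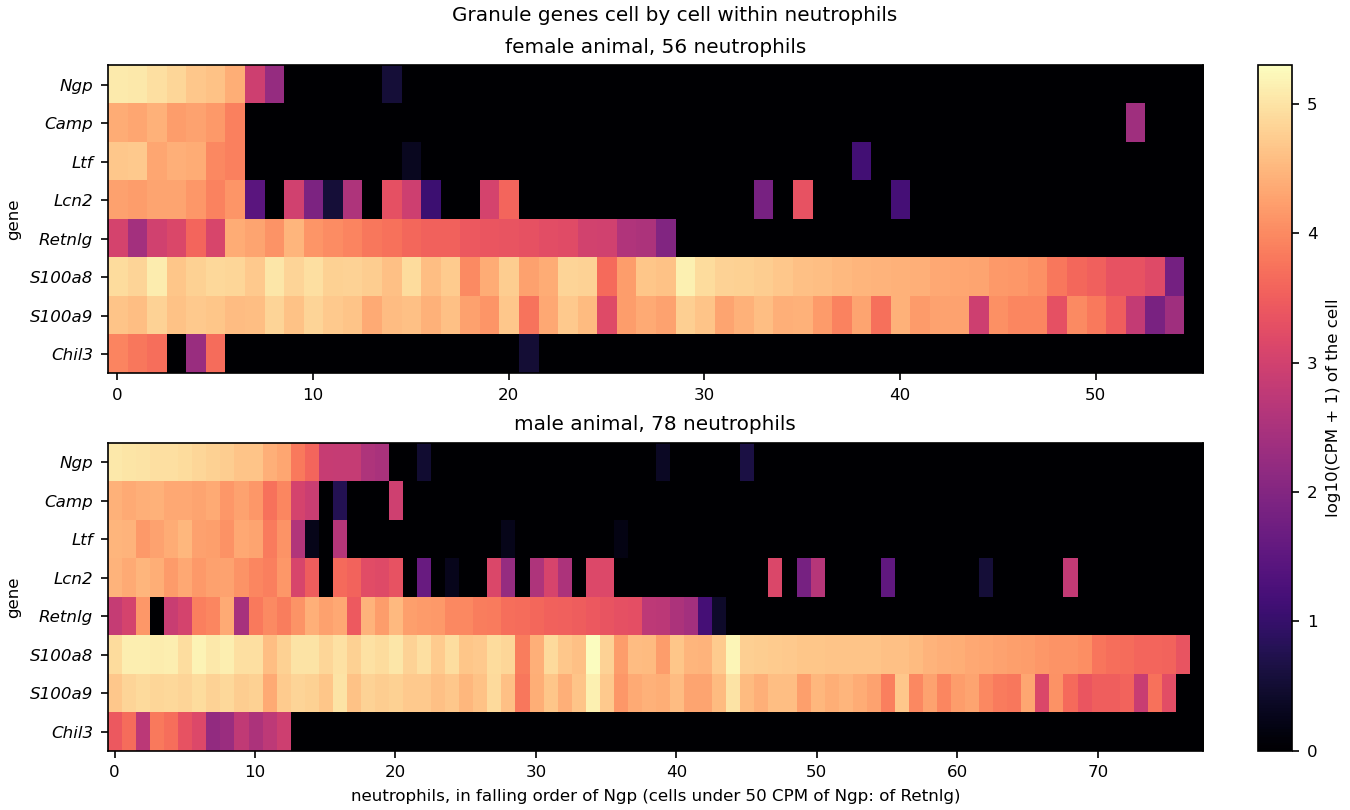
Each column is 1 neutrophil and each row 1 gene, with colour giving log10(CPM + 1) of the cell. Cells run from the highest Ngp on the left, and those under 50 CPM of Ngp are ordered by Retnlg. Ngp, Camp, Ltf and Lcn2 are bright together in 7 female and 13 male cells, Chil3 lies within that set, Retnlg extends beyond it, and S100a8 and S100a9 run across nearly all cells.

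Ngp, Camp and Ltf share a chromosome. In the RefSeq annotation of GRCm38.p6 they lie on chromosome 9, where 570 kb separate Camp from Ngp and 596 kb separate Ngp from Ltf. Since these genes were on in the same cells, the 250 bases before their annotated starts are printed here, with those of Lcn2 and, for contrast, of Retnlg, which was on in other cells as well. The windows are chr9:110419558-110419807, plus strand, for Ngp, chr9:109849457-109849706, minus strand, for Camp, chr9:111019042-111019291, plus strand, for Ltf, chr2:32387740-32387989, minus strand, for Lcn2 and chr16:48872358-48872607, plus strand, for Retnlg. Each is given 5′ to 3′ on the strand of the gene, and capitals mark matches to a C/EBP-type motif (TTGCNNAA, or TTNNGCAA on the other strand) or to a PU.1-type motif (GAGGAAG, or CTTCCTC).
Ngp: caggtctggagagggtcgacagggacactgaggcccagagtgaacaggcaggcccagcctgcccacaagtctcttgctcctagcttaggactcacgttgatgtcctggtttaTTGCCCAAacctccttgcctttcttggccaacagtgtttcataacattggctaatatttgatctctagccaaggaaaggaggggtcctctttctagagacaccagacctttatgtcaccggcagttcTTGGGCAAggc
Camp: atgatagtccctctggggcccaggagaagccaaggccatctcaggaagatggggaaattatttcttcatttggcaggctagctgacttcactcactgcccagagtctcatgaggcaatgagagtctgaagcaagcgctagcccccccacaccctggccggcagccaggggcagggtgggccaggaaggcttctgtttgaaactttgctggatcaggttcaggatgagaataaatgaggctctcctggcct
Ltf: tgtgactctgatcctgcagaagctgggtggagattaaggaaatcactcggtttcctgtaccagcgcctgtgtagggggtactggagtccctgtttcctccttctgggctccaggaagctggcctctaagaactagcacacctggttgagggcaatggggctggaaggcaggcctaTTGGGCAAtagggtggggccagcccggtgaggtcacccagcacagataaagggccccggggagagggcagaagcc
Lcn2: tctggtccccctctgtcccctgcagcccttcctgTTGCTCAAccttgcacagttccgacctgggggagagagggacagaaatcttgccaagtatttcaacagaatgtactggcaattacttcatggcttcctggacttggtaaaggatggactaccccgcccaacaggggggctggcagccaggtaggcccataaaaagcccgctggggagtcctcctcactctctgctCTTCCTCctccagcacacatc
Retnlg: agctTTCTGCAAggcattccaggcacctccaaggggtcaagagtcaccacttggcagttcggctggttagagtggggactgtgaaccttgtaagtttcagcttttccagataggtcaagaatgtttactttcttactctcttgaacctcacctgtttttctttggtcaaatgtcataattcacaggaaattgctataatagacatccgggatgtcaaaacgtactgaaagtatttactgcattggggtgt
The C/EBP-type letters occur 2 times before Ngp, as TTGCCCAA and TTGGGCAA, and 1 time each before Ltf (TTGGGCAA), Lcn2 (TTGCTCAA) and Retnlg (TTCTGCAA). They are not in the Camp window. Among all 10 genes 5 hold this motif, the fifth being S100a9, and it is in 9.55% of the 27025 RefSeq promoter windows of this length. The PU.1-type letters are in 4 of the 10 windows (Elane, Mpo, Lcn2 and S100a8) and in 10.4% of all windows, and a GATA-type motif (AGATAA or TTATCT), also searched, is in 3 (Chil3, Ltf and S100a9) and in 10.3%. A match describes the letters only. Of the factors that bind such letters, Cebpe encodes the C/EBP family member of late granulocyte stages. It was detected in all 7 female and 11 of 13 male cells of the high Ngp range. Under 50 CPM of Ngp it was detected in 6 of 46 female and 5 of 58 male cells. Cebpb was detected in 5 and 9 cells of the high range and in 35 and 45 cells under 50 CPM. For Cebpd these counts were 5 and 9 against 23 and 27. For Spi1, the PU.1 gene, they were 7 and 13 against 33 and 45. The part of these factors was not tested.

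Retnlg, which encodes a secreted resistin-like protein of neutrophils, was on in more cells and peaked in different ones. It was detected in 29 of 55 female neutrophils (52.7%) and 41 of 78 male ones (52.6%). Of the cells under 50 CPM of Ngp, 20 female and 22 male ones had it, at up to 29983 CPM and 33407 CPM. The 9 cells with Ngp between 50 CPM and 10000 CPM all had it, at 12962 CPM and 19623 CPM in the 2 female cells and at a median of 17815 CPM in the 7 male cells. In the cells highest in Ngp the median of Retnlg was lower than in these 9 cells. It was 1244 CPM in the 7 female cells and 6637 CPM in the 13 male cells. In the cells under 50 CPM of Ngp the median of Retnlg was 0 in both animals. Over all thinned neutrophils Retnlg was positively related to Ngp, with Spearman's rho of 0.35 (female) and 0.48 (male). The female cell with the most Ngp (121316 CPM) held 1108 CPM of Retnlg, and the male cell with the most (115853 CPM) held 713 CPM. Within these high cells Retnlg was negatively related to Ngp, with Spearman's rho of -0.79 over 7 female cells and -0.34 over 13 male cells, whereas for Camp with Ngp it was 0.86 and 0.90. Each set is a few cells of 1 animal.

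**Figure D3:**
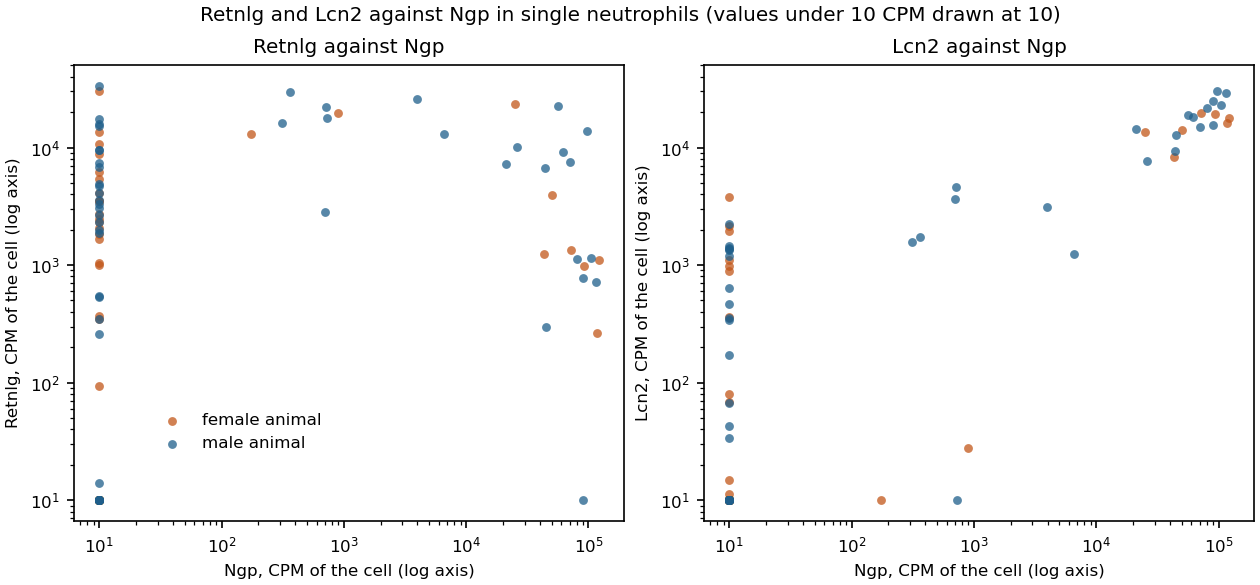
Retnlg (left) and Lcn2 (right) against Ngp in single neutrophils of both animals, in CPM on log axes, with values under 10 CPM drawn at 10. Lcn2 is highest in the cells highest in Ngp, while the highest Retnlg value of each animal is in a cell under 50 CPM of Ngp and the cells with the most Ngp hold 1108 CPM and 713 CPM of Retnlg.

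S100a8 and S100a9, the cytosolic pair, were on in nearly every neutrophil. S100a8 was detected in 55 of 55 female and 77 of 78 male cells and S100a9 in 55 and 76. Their per-cell levels still spread widely. S100a8 ran from 64.4 CPM through a median of 40180 CPM to 141476 CPM in the thinned female cells. In the male ones it ran from 0 through 46935 CPM to 234154 CPM, and the pair together took a median of 6.64% of the reads of a female and 8.15% of a male neutrophil. In the cells of the high Ngp range the median of S100a8 was 70680 CPM (female) and 116564 CPM (male), against 31734 CPM and 38682 CPM in the cells under 50 CPM of Ngp, with overlapping ranges. The 2 genes lie 22.6 kb apart on chromosome 3, and their Spearman's rho over cells was 0.90 (female) and 0.95 (male).

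Over all neutrophils the 8 expressed genes were positively related to one another. All 28 pairs had a positive Spearman correlation in both animals and on each of the 4 CD45 plates. Correlations are over 55 female and 78 male cells, which share their animal, their plates and their range of depth. By the lower of the 2 animals' values, the closest pairs after S100a8 with S100a9 were Camp with Ltf (0.89 in the female, 0.91 in the male), Ngp with Ltf (0.84 and 0.89) and Ngp with Camp (0.84 and 0.87), while in the male Ltf with Chil3 stood at 0.94 (0.79 in the female). The weakest was Retnlg with Chil3, at 0.13 and 0.25. Depth and these genes were themselves related, Ngp with reads per cell at 0.43 and 0.21.

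The non-member genes most like Ngp within neutrophils were Itgb2l (0.75 in the female, 0.79 in the male), a beta integrin, Cd177 (0.76 and 0.75), a surface glycoprotein of specific granules, Adpgk (0.73 and 0.74), a glucokinase, Cybb (0.69 and 0.73), the catalytic subunit of the phagocyte NADPH oxidase, and Stfa3 (0.68 and 0.76), a stefin. These were the highest of 2040 genes by the lower of the 2 correlations. The lowest were Csf3r (-0.62 and -0.55), the receptor for granulocyte colony-stimulating factor, Clec7a (-0.52 and -0.53), the beta-glucan receptor dectin-1, Srgn (-0.51 and -0.55), the granule proteoglycan serglycin, Malat1 (-0.51 and -0.64), a nuclear long RNA, and Fxyd5 (-0.48 and -0.56). For Retnlg the most alike were the stefin-family genes BC100530 (0.69 and 0.71), Stfa2 (0.65 and 0.72), Stfa1 (0.64 and 0.58) and BC117090 (0.61 and 0.57), followed by the transketolase gene Tkt (0.51 and 0.53). Stefin genes are near copies of one another, so reads may be split among them and their separate values are uncertain. Opposite to Retnlg were Vmn1r-ps27 (-0.36 in both animals), Malat1 (-0.34 and -0.41), Jun (-0.39 and -0.32), Il1b (-0.31 and -0.37) and Cd300c2 (-0.31 and -0.36). Mpo was too rare for such a ranking.

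All 8 ranked non-member genes of the specific granule and myelocyte list were positively related to Ngp in both animals, with a median rho of 0.55 in the female and 0.69 in the male against 0.07 and 0.04 over all 2040 genes. They ranged from Cd177 and Itgb2l down to Olfm4 (0.04 and 0.07) and Hp (0.07 and 0.02), which lay near the background. Lyz2, the lysozyme gene, was at a median of 30540 CPM (female) and 30918 CPM (male) in the cells of the high Ngp range, against 1496 CPM and 1399 CPM in those under 50 CPM. All 5 ranked genes of the gelatinase granule list were positive as well (median 0.29 and 0.37), from Mmp25 (0.41 and 0.46) to Adam8 (0.06 and 0.19). With Retnlg these 5 stood at 0.40 and 0.39. The secretory vesicle and mature surface list was mixed, with 4 of 9 genes positive and 5 negative in both animals. By the lower of the 2 correlations Itgam (0.29 and 0.30), the alpha chain of the integrin Mac-1, was the highest, followed by Fpr2 (0.30 and 0.26), a formyl peptide receptor, and Csf3r was the lowest.

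The list of tissue neutrophil cytokine and chemokine genes went the other way, with all 5 ranked genes negative with Ngp in both animals (median -0.11 and -0.27). They ran from Il1b (-0.47 and -0.60) to Nfkbia (-0.0006 and -0.27), which was at the background in the female. The other genes of the list were too rare to be ranked. Il1b, which encodes interleukin-1 beta, was detected in 1 of 7 female and 0 of 13 male cells of the high Ngp range and in 40 of 46 female and 52 of 58 male cells under 50 CPM. In the latter its median was 9276 CPM (female) and 9401 CPM (male). Csf3r, at a median of 368.7 CPM and 86.9 CPM in the high range, stood at 4880 CPM and 2561 CPM in the cells under 50 CPM. Of the granulocyte transcription factors, 3 of 5 ranked genes were positive, led by Cebpe (0.65 and 0.59), and Cebpb was negative (-0.18 and -0.25). Both ranked non-members of the cytosolic calcium-binding list, S100a6 (-0.18 and -0.11) and S100a11 (-0.05 and -0.08), were weakly negative with Ngp and positive with Retnlg. No gene of the proliferation list was frequent enough to be ranked. Only 1 neutrophil, of the male, had 4 or more of its 10 genes. That cell held 4677 CPM of Retnlg and 7291 CPM of S100a8 with no read of Ngp, Camp, Ltf or Lcn2. At 100000 reads it showed 4818 genes, the most of the male cells under 50 CPM of Ngp, whose median was 1298. Whether it was a doublet was not tested.

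Across the labelled subtypes, 6 of the 10 genes were all but confined to neutrophils in these 2 animals. Neutrophils held 99.999% of the reads of Retnlg, 99.98% of those of Ngp and of Ltf, 99.9% of those of Camp, 99.5% of those of Lcn2 and 98.9% of those of S100a9. The share was 97.1% for S100a8 and 55.2% for Chil3. No cell outside the neutrophils had detected Retnlg, and Ngp, Camp, Ltf and Lcn2 were each detected in 1 to 3 of 1045 such cells. The map of levels by subtype shows the exceptions. Among them were S100a8 and Chil3 in several macrophage subtypes, S100a8 and S100a9 (974 CPM) in male B cells and Mpo in mast cell II. Others were S100a9 in Mac V (25.6 CPM in the female, 69.4 CPM in the male), Lcn2 in male DC I (60.9 CPM) and Mpo in female basophils (14.9 CPM).

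**Figure D4:**
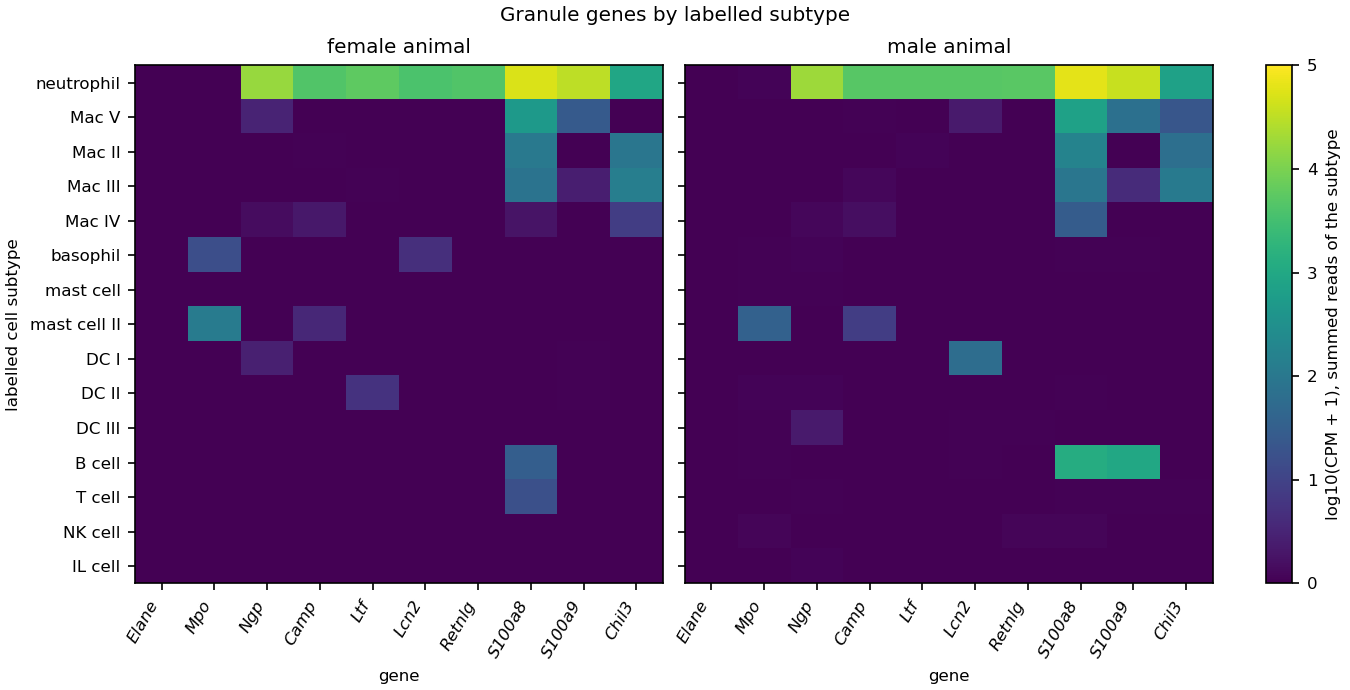
Level of each gene (columns) in the summed reads of each labelled subtype (rows), as log10(CPM + 1), for the female (left) and the male (right). Neutrophils are bright for 8 of the 10 genes, S100a8 extends to Mac V, Mac II and Mac III, Chil3 to Mac III and Mac II, and Mpo to mast cell II. In the male S100a8 and S100a9 also extend to B cells.

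By its mean over the animals S100a8 was next highest after neutrophils (57521 ± 6346 CPM, SD, n = 2) in the B cells and in Mac V, but the B cells held 1264 CPM in the male and 30.5 CPM in the female, below Mac V, Mac II and Mac III of that animal. In Mac V at least 2 of 4 monocyte markers were detected in 62 of 66 female and 42 of 44 male cells. These markers were not particular to Mac V, as 33 of 34 female and 17 of 19 male basophils also had at least 2. The B cell value came from a single cell of each animal. In the male 1 of 25 thinned B cells held 99.99% of the reads, at 24863 CPM of S100a8 and 19154 CPM of S100a9, and it carried both the B cell gene Cd79a (4159 CPM) and the neutrophil gene Csf3r (1641 CPM). In the female 1 of 39 B cells held 1397 CPM of S100a8 and no S100a9. Doublets were not called, and the part of such cells was not tested. Mac V stood at 603 ± 164.7 CPM of S100a8, Mac II at 136.1 ± 47.7 CPM and Mac III at 84.3 ± 8.09 CPM (SD, n = 2 each), and the ranges of these neighbours in the order did not overlap between the animals. S100a8 was detected in 22 of 66 female and 19 of 44 male Mac V cells, 13 of 27 and 11 of 20 Mac II cells, and 44.8% and 38.5% of the Mac III cells, against 1 of 26 female and 0 of 20 male T cells, all thinned to the same depth. S100a9 did not keep pace: it was detected in 2 female and 2 male Mac V cells, 2 and 1 Mac III cells and no Mac II cell. At least 2 neutrophil markers were detected in 10 female and 9 male Mac V cells, and the part of these cells was not tested. In the male Mac V, 1 cell held 32.4% of the S100a8 and 78.4% of the S100a9 reads.

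Chil3 had its highest level in neutrophils at 807 ± 130 CPM, followed by Mac III, the largest subtype, at 122.1 ± 20.5 CPM and Mac II at 78.1 ± 16.7 CPM (SD, n = 2 each), and these ranges did not overlap between the animals. Both macrophage subtypes carried alveolar macrophage markers, with at least 2 of 5 detected in 99.4% of female and 96.2% of male Mac III cells and in 26 of 27 and 20 of 20 Mac II cells. Chil3 itself was on in few of these cells. It was detected in 19.3% of female and 16.3% of male Mac III cells, 5 of 27 and 2 of 20 Mac II cells, and 1 of 44 male and no female Mac V cell. Over the 30 summed libraries, the genes most like S100a8 were Mmp8, Sirpb1b, G0s2, Mtus1 and Csf3r (Pearson's r of log2(CPM + 1) from 0.88 to 0.90), those most like Chil3 were Jph3, Mcam, 1700001J04Rik, Trem1 and Rhov (0.88 to 0.93), and those most like Ngp were Foxd4, Mrgpra2b, Ly6g, Prps1l1 and Itgb2l (0.99). These are descriptions over 15 subtypes of the same 2 animals, and for Ngp they rest on a single subtype.

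Neutrophils were tested against 3 subtypes with edgeR's quasi-likelihood test on reads summed per animal and subtype, with Benjamini-Hochberg adjustment over 15600 genes and a threshold of 0.05. Elane was too low to be tested, so 9 of the 10 genes entered. The 3 comparisons share the 2 neutrophil libraries and are not independent of one another. A call describes the labelled classes, since the labels probably come from the expression of these same cells. The numbers of genes called rest on 2 animals a group, with a biological coefficient of variation of 1.15.

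Against Mac V, the specific granule genes Ngp, Camp and Ltf and the gelatinase-stage gene Retnlg were higher in neutrophils, and Lcn2 and the cytosolic pair did not pass the test. Of the 9 genes, 4 were higher in neutrophils, beside 0.115% of all genes tested and 0.404% called in either direction. Ngp was at 16815 and 18570 CPM in the female and male neutrophils and at 2.20 and 0.02 CPM in Mac V, a log2 difference of 14.34 ± 2.60 (SE), adjusted p = 0.0163. Camp was at 4342 and 5058 CPM against 0.01 and 0.07 CPM (17.36 ± 2.13, adjusted p = 0.00659). Ltf had no read in Mac V and was at least 230066-fold higher by a floor of 3 reads over both libraries (adjusted p = 0.0131), and Retnlg had 1 read there (adjusted p = 0.000412), a ratio with a counting interval from 115008 to 25309600. For each of these 4 genes both neutrophil libraries lay above both Mac V libraries. The share of all genes with this order was not counted.
The genes that missed the threshold had lower ratios of summed levels, at most 9282-fold (Lcn2), against at least 12472-fold (Ngp) for those called. Why they missed it was not tested. Lcn2 was at 3794 and 5081 CPM against 0.02 and 1.32 CPM (13.12 ± 3.12, adjusted p = 0.0981), S100a8 at 53034 and 62009 CPM against 487 and 719 CPM, 101.9-fold higher (6.99 ± 1.90, adjusted p = 0.162), and S100a9 at 31901 and 38408 CPM against 25.6 and 69.4 CPM (9.95 ± 2.57, adjusted p = 0.134). Chil3 stood at 6.71 ± 2.64 (adjusted p = 0.328) and Mpo at 1.95 ± 2.48 (adjusted p = 0.844). A missed threshold does not show that these levels are alike. Both neutrophil libraries also lay above both Mac V libraries for Lcn2, S100a8, S100a9 and Chil3, again without a count of this order over all genes. Fewer of the 9 genes were called without the female or the male Mac V library or without the female neutrophil library. With DESeq2 the calls of Ltf (adjusted p = 0.0698) and Retnlg (0.114) were lost and those of Lcn2, S100a8 and S100a9 gained, and without the 10 cells in doubt S100a9 was called as well (adjusted p = 0.0012).

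Against Mac III, the subtype with alveolar macrophage markers, 7 of the 9 genes were higher in neutrophils, beside 0.731% of all genes and 1.41% called in either direction. They were Ngp, Camp, Ltf, Lcn2, Retnlg, S100a8 and S100a9, with adjusted p from 9.86e-05 for Retnlg to 0.0234 for S100a8. S100a8, at 78.6 and 90.1 CPM in Mac III, was 685-fold higher in neutrophils (9.88 ± 2.14), and S100a9, at 1.62 and 3.18 CPM, was 14533-fold higher (14.30 ± 2.97, adjusted p = 0.0197). Chil3 was at 899 and 715 CPM in neutrophils and 136.6 and 107.6 CPM in Mac III, 6.57-fold higher. It did not pass the test (3.21 ± 2.24, adjusted p = 0.511). Mpo did not either (adjusted p = 0.577). Fewer of the 9 genes were called without the female or the male Mac III library. In a fit of the 4 compared libraries alone Chil3 was called too (adjusted p = 0.0235). With DESeq2 Ltf (adjusted p = 0.140) and Retnlg (0.0685) were not called.

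Against basophils, the other labelled granulocyte, 8 of the 9 genes were higher in neutrophils, beside 1.89% of all genes and 2.95% called in either direction. Basophils had no read of Camp or Retnlg, which were at least 109104-fold and 113729-fold higher in neutrophils by the same floor. They had 2 reads of Ngp, of Ltf and of S100a8, 3 of S100a9 and 1 of Chil3. Adjusted p ran from 7.94e-05 for Retnlg to 0.0386 for Chil3 and 0.0484 for Lcn2, whose basophil reads came to 99.5% from the 1 female cell that also held Mpo. Mpo itself pointed the other way, with a log2 difference of -6.69 ± 2.98 (adjusted p = 0.226), and that cell held 99.3% of the female basophil reads of Mpo. With the animal as a replicate block 6 of the 9 genes were called, beside 3.04% of all genes. Lcn2 (adjusted p = 0.0604) and Chil3 (0.0587) passed the threshold no longer, and with DESeq2 Ltf (0.0963) and Retnlg (0.0631) did not pass it. Fewer of the 9 genes were called when either basophil library or either neutrophil library was left out.

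**Figure D5:**
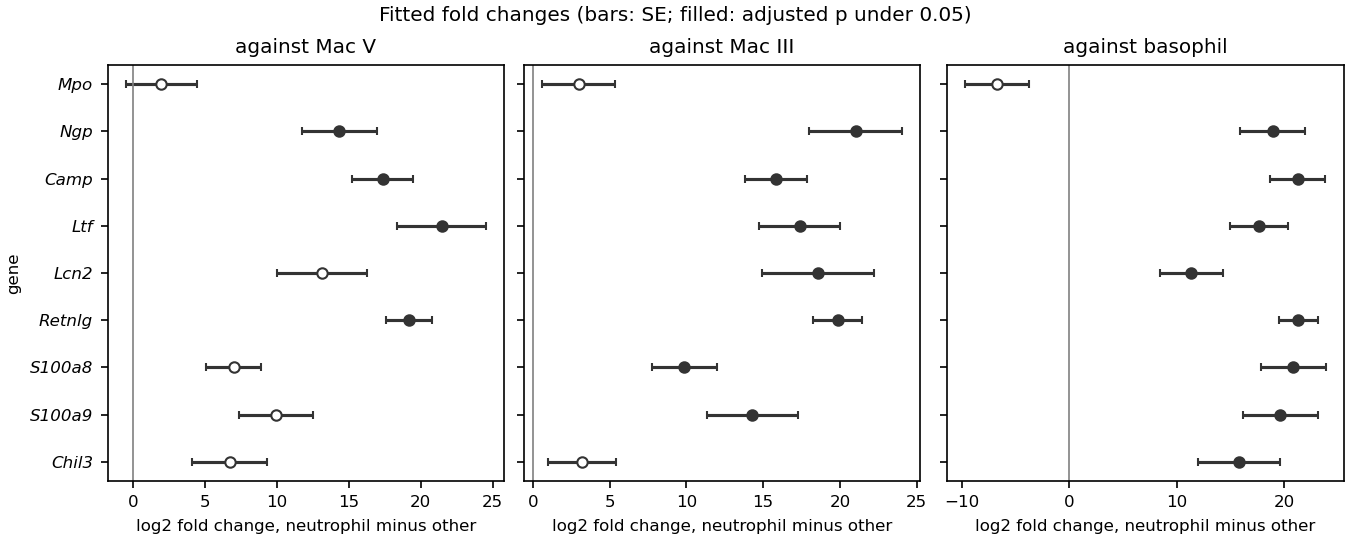
Fitted log2 fold change (neutrophil minus the other subtype, x axis) of the 9 tested genes (y axis) with standard errors in the 3 comparisons. Filled points have an adjusted p under the threshold: 4 against Mac V, 7 against Mac III and 8 against basophils. Points of genes with no read in the other subtype depend on the prior count of the fit.

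The wider stage lists gave the same comparisons a background of related genes. Of the 14 genes of the specific granule and myelocyte list, 5 of them among the 10 genes here, 4 were higher in neutrophils than in Mac V, 8 than in Mac III and 10 than in basophils, beside the percentages given above. These counts include calls already reported: Ngp, Camp and Ltf in all 3 comparisons, Lcn2 against Mac III and basophils, and Chil3 against basophils. Its median log2 differences were 7.82, 13.66 and 16.48, or 7.82, 13.42 and 13.84 with genes of 0 reads in a group set to a floor of 3 reads, against 0.00, -0.22 and 0.36 over all genes. DESeq2 called 4, 5 and 7 of these genes higher. Outside the 10 genes, Olfm4, which encodes the specific granule protein olfactomedin-4, was at 1051 and 325.9 CPM in the female and male neutrophils and was called in all 3 comparisons. Of the 7 genes of the gelatinase granule list 2, 6 and 4 were higher. Retnlg, itself on that list, and the membrane-bound metalloproteinase gene Mmp25, at 128.8 and 47.5 CPM in neutrophils, were so in all 3. None of the 6 tested azurophil genes was higher in a comparison by edgeR. At an unadjusted p under 0.05 Serpinb1a was higher against Mac V and Fcnb against Mac III and basophils, while 2, 0 and 2 of the 6 genes were lower. DESeq2 called 1, 0 and 1 higher and 1, 0 and 0 lower. Lower by edgeR was Ctsg against basophils, which had no read in neutrophils and stood at 53.3 and 137.7 CPM in basophils. Of the 10 mature surface genes 0, 3 and 3 were higher, and of the 10 cytokine and chemokine genes none passed edgeR's test in the 3 comparisons, with 2, 3 and 1 higher and 0, 0 and 3 lower at an unadjusted p under 0.05, and 2, 4 and 1 higher and 0, 0 and 1 lower by DESeq2. Of the 8 granulocyte transcription factors Cebpe was higher than in Mac III and basophils by edgeR, DESeq2 called 1 lower than in Mac III and 2 lower than in basophils, and none was called against Mac V by edgeR, by DESeq2 or at an unadjusted p under 0.05. From the proliferation list Birc5, Cenpf and Top2a were higher in neutrophils than in basophils. They were detected in few neutrophils, Birc5 in 2 female and 3 male cells, Cenpf in 1 and 1 and Top2a in 1 and 2. None of the 10 was called against Mac V or Mac III by edgeR, by DESeq2 or at an unadjusted p under 0.05. Counts at an unadjusted p under 0.05 over all 15600 genes, in either direction, were 2026, 2427 and 3090. DESeq2 called 8.92%, 11.2% and 19.1% of all genes in either direction. The list counts above are to be read beside these shares.

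With 1 animal of each sex no test between the female and the male was possible. Summed levels in male neutrophils were 0.80 times the female level for Chil3, 0.85 times for Ltf and 1.10 to 1.34 times for the other 6 expressed genes. For Ngp the CD45 plates within an animal differed by more than the animals did. Ngp stood at 21803 and 12742 CPM on the 2 female plates and at 12018 and 24878 CPM on the 2 male plates. Only for S100a9 did the plates of the 2 animals not overlap (31199 and 32739 CPM against 32812 and 44083 CPM). The nearest of these, 32739 and 32812 CPM, lay closer together than the 2 male plates, and the share of all genes without overlap was not counted. By the sequencing run label the female CD45 plates belonged to different runs and both male plates to 1 run.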

How the data were processed

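The RNA of single flow-sorted cells was sequenced from plate-based libraries cut with Tn5 transposase, per the labels' protocols, which name no molecular identifiers. The authors deposited whole-number read counts per gene and cell. STAR 2.5.2b, HTSeq 0.10 and the build name GRCh38 are listed per the submitters' processing notes. That is a human build name although the organism is mouse, so no coordinates were taken from the count data. Their roles and the annotation are not given in the sources used here. Groups are the labelled cell subtypes, and each library is 1 of 2 animal labels, taken as 1 animal each, so p-values measure the spread between these 2 only. All columns matched a sample, no 2 cells were identical, and no doublet caller was run.

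Counts were summed per animal where a subtype had 5 or more cells from both animals. The 15 such subtypes made 30 libraries of 6024429 to 235566546 reads. Genes were kept by filterByExpr, scaled by TMM and tested with edgeR 4.0.16 (R 4.3.3) at an adjusted p under 0.05, all 30 libraries sharing 1 estimate of the spread. DESeq2 1.42.0 was an alternative. The edgeR step was tested on simulated data for neutrophils against Mac V. At a biological coefficient of variation of 1.15 it called 0 of 24 genes raised 8-fold and 0 of 23 raised 100-fold. Of genes raised 10000-fold it called 23 of 25. Libraries of 1 animal share that animal, so an alternative fit had the animal as a block. Female minus male deviations of the compared subtypes correlated by -0.01 to 0.04 over genes. Shares of cells used cells thinned to 100000 reads, with Clopper-Pearson 95% intervals that cover counting error only, and 5 of the 1183 cells were too shallow. Cell levels are CPM of the unthinned reads. Spearman correlations used thinned cells and carry no p. Python 3.11.15 with numpy 2.4.6, pandas 2.3.3, scipy 1.17.1 and matplotlib 3.10.9 was used.

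The genes and lists were chosen with earlier results of these data known. Beside the 10 genes, the text names the 5 genes most like and the 5 most opposite to Ngp and Retnlg among genes with a read in at least 20% of the neutrophils of each animal, by the lower (or higher) of the 2 correlations, the 5 most like Ngp, S100a8 and Chil3 over the summed libraries, and 2 to 4 examples of each list. Further genes were chosen after their values were seen. They were named in the cells high in Ngp (Lyz2, Il1b, Csf3r, Cebpe, Cebpb, Cebpd and Spi1), in the tests (Birc5, Cenpf and Top2a) and in single cells. Promoter windows are from RefSeq (GRCm38.p6). All 10 symbols matched. Other settings tried were the tool, the scaling, the filter, thinning before summing, CD45 plates only, only the compared libraries, the detection limit and each library left out. Leaving out the 10 cells in doubt (8 neutrophils with fewer than 2 neutrophil markers and 2 other cells over 20000 CPM of S100a8) was chosen after seeing the data.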

Additional observations from a re-analysis of the deposited data

Results flagged for a closer look

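Some of the 10 genes gave signal in subtypes that no test compared, in cells of both animals. In B cells S100a8 was at 30.5 CPM (female) and 1264 CPM (male), each from 1 cell. In Mac II it was at 102.4 CPM (female) and 169.9 CPM (male), spread over 13 and 11 cells. Chil3 was at 89.9 CPM (female) and 66.3 CPM (male) in the same subtype, from 5 and 2 cells. Mpo was at 120.3 CPM (female) and 34.5 CPM (male) in the cells labelled mast cell II, from 2 cells and 1 cell.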

How the results depend on the processing

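The counts of calls rest on 2 animals a subtype and moved with the tool and with single libraries. Percentages here are of the genes tested, for the comparisons with Mac V, Mac III and basophils in that order. The main values were 0.404%, 1.41% and 2.95%, of which 28.6%, 51.8% and 64.1% were higher in neutrophils. DESeq2 called 8.92%, 11.2% and 19.1%, of which 51.04%, 42.1% and 68.2% were higher. Thinning before summing called 1.07% and 4.43% against Mac V and Mac III. The compared libraries alone called 0.846% and 5.37%, of which 77.3% and 69.3% were higher. Leaving out 1 library at a time called 0.012% to 0.658%, 0.314% to 1.73% and 0.880% to 2.66% of all genes, and 1 to 4, 3 to 7 and 4 to 6 of the 9 granule genes. With the animal as a replicate block 0.487%, 1.77% and 3.04% of the genes and 4, 7 and 6 granule genes were called. The sign of Mpo depended on single libraries. As libraries were left out its log2 difference ran from -3.14 to 5.26 against Mac V, from -2.15 to 4.07 against Mac III and from -11.75 to 0.51 against basophils, with the reversals coming without the male neutrophil library or the female basophil library. Over all settings 37 other fold changes of the granule genes lost and 8 gained the call, and the direction of none reversed. Without the doubted cells 5, 7 and 8 granule genes were called, beside 0.502%, 1.58% and 2.90% of all genes. Of 80 shares of cells recomputed, 79 stayed within their interval, and no correlation between granule genes changed sign. No other cause of a changed value was tested. A gene detected in none of the thinned cells may still be on in up to 5.45% of female or 3.85% of male neutrophils by a limit of 3 counts.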
